A study of Mus musculus with 3 samples.

Results

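Transcripts of 9 genes of MHC class I antigen presentation, B2m, H2-K1, H2-D1, H2-Q7, H2-T23, Tap1, Tap2, Tapbp and Nlrc5, were followed in T cells sorted from the spleens of mice after allogeneic bone marrow transplantation. The genes form a list of names, and they are 9 of the 18029 genes in the single-cell count table. All recipients were irradiated B6D2F1 mice, the F1 hybrid of C57BL/6 (B6) and DBA/2, and all received B6 bone marrow, B6 T cells and TEa T cells, which carry 1 transgenic receptor for an allogeneic peptide on MHC class II. From day 0 to day 6 they were given saline or cyclosporin A (CSA), an inhibitor of the phosphatase calcineurin, at a dose of 5 or 50 mg/kg, and spleens were taken on day 7. Each group of 6 mice gave 3 hashtagged pools of 2 mice. The labels do not tie a hashtag to mice, so each hashtag within a capture was taken as 1 pool. Within a group the sorted CD4+ cells and CD8+ cells were mixed for 1 capture. Treatment and capture therefore cannot be told apart, whereas CD4+ and CD8+ cells, and TEa and other CD4+ cells, were compared within a capture. The study describes the sorted cells as donor T cells. The surface markers of the sort do not by themselves separate donor cells from residual recipient cells, and the labels give no age or sex.

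MHC class I molecules show peptides from inside the cell to CD8+ T cells. A polymorphic heavy chain pairs with beta-2 microglobulin, and the pair is filled in the endoplasmic reticulum with peptides that the proteasome has cut and the TAP transporter has pumped in, with tapasin holding the empty chain beside the transporter. NLRC5 is the transactivator that binds the class I promoters together with RFX, CREB/ATF and NF-Y factors, and interferons raise most of these genes in lymphocytes.

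Of the 9 genes, B2m, the light chain, lies on chromosome 2 (chr2:122147686-122153083, mm10, plus strand) and Nlrc5 on chromosome 8 (chr8:94434356-94527272, plus strand). The other 7 lie in the MHC on chromosome 17, and Tap1 (chr17:34187553-34197225, plus strand) and Psmb9 (chr17:34181987-34187764, minus strand), an immunoproteasome subunit, run in opposite directions from overlapping starts. RefSeq promoters of build GRCm38.p6 were found for 7 of the 9 genes, all but Tap2 and Nlrc5. In the 250 bases before each start, searched on both strands, the NF-Y box CCAAT occurred in 7 of 7 and in 33.8% of all 32851 promoter windows. The CRE-like letters TGACG occurred in 5 of 7, against 17.8% of all windows. The interferon-response letters GAAANNGAA occurred in B2m and H2-T23 (7.13% of all windows) and their other form GAANNGAAA in H2-K1, H2-D1 and H2-Q7 (6.31%). The NF-kB letters GGGGATTCC occurred in the same 3 heavy chains (0.213% of all windows), and the interferon-gamma activation letters TTCNNNGAA in 0 of 7 (7.02%). The promoters of the light chain and of 2 heavy chains are shown because these genes and their regulators are compared throughout, and the capitals mark the matches (B2m, chr2:122147437-122147685, plus strand; H2-K1, chr17:34000348-34000597, minus strand; H2-Q7, chr17:35438905-35439154, plus strand).
B2m: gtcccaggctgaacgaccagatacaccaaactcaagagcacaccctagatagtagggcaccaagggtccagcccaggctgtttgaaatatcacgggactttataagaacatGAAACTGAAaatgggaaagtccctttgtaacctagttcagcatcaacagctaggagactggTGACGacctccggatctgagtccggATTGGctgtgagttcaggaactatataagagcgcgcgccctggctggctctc
H2-K1: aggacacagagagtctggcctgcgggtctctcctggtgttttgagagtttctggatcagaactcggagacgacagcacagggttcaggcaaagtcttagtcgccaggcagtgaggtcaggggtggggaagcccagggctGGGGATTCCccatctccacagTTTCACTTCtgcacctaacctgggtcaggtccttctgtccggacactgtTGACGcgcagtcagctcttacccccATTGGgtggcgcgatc
H2-Q7: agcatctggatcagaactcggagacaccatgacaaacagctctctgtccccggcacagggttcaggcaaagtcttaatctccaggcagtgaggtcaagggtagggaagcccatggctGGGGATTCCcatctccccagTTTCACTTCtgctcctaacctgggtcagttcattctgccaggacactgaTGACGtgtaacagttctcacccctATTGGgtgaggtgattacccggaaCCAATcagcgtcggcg
In B2m the interferon-response letters began 139 bases before the start, TGACG 78 and the CCAAT box 53. H2-K1 and H2-Q7 shared the order of NF-kB, interferon-response, TGACG and CCAAT letters, at 111, 90, 41 and 16 bases before the start in H2-K1 and at 133, 113, 64 and 40 in H2-Q7, whose window held a further CCAAT box at 16. The table's other start of H2-K1 puts them at 125, 104, 55 and 30, with a further CCAAT box at 6. The searched windows can hold exons: those of Tapbp, Tap1 and H2-D1 had 0 bases free of exons just before the start and that of H2-T23 had 96, so their matches can lie in transcribed sequence. A match is a match of letters and not a measured binding site.

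The markers of T cells were high in every pool, and those of other cell types were low but differed between captures. After TEa cells were set aside, 20924 cells remained, 10091 CD4+ and 10833 CD8+, with 692 to 1615 cells and 3994968 to 11454636 UMIs (unique molecular identifiers, 1 per captured transcript) in a pool and lineage. The median number of UMIs per cell rose with dose, from 3097 to 4396 and 5979.5 in CD4+ and from 4108 to 6121.5 and 7183 in CD8+ cells. Summed T cell markers (Cd3d, Cd3e and others, 4 of 4 detected) lay between 3016 and 4026 CPM (counts scaled to the library size). Summed B cell markers rose from 161–171 CPM with saline to 546–672 at 50 mg/kg in CD8+ cells and from 175–189 to 258–296 in CD4+ cells. Erythroid markers went from 3.21–17.9 to 24.6–48.7 CPM, myeloid and dendritic markers stayed between 24.6 and 212 with Flt3 at 0, and NK markers between 0.444 and 11.2. The part of these differences in the results was not tested. Of the barcodes, 218 sequences occurred in more than 1 capture.

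The light chain and the heavy chains H2-K1, H2-D1 and H2-T23 rose with both doses in both lineages relative to the median gene, while Nlrc5 fell at both doses and Tap1 at 50 mg/kg. The fall of Nlrc5 at 5 mg/kg in CD4+ cells was not seen with the shares of the T cell clusters held fixed (−0.01, adjusted p = 0.970, limma). The scale is decisive for the rises. Counts were first compared as CPM after TMM normalisation, which sets the typical gene of each pool equal, so that the median log2 change of all genes was −0.01 at 50 mg/kg in CD4+ and 0.00 in CD8+ cells. As plain shares of all UMIs the median gene fell with CSA, by 0.37 and 0.45 (log2) at 5 and 50 mg/kg in CD4+ cells and by 0.43 and 0.53 in CD8+ cells, and on that scale B2m and H2-T23 did not pass the threshold at either dose, while H2-K1 and H2-D1 fell at 5 mg/kg in both lineages and H2-K1 also at 50 mg/kg in CD4+ cells. The falls of Nlrc5 at both doses and of Tap1 at 50 mg/kg were present on both scales. In sums over a pool, fewer cells of a kind and less RNA per cell cannot be told apart.

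B2m encodes the shared light chain. In CD4+ cells its 3 pools held 1989.6, 1970.0 and 1981 TMM-normalised CPM with saline, 2426, 2446 and 2501 at 5 mg/kg and 2734, 2579.6 and 2465 at 50 mg/kg. In CD8+ cells they held 1729, 1682 and 1729, then 2331, 2199 and 2264, then 2559, 2632 and 2261. Every CSA pool lay above every saline pool, whereas the CSA doses overlapped in both lineages. By the quasi-likelihood test of edgeR, adjusted over all genes after Benjamini and Hochberg, B2m rose 1.24-fold at 5 mg/kg (log2 0.31 ± 0.03 SE, adjusted p = 1.51e-07) and 1.31-fold at 50 mg/kg (0.39 ± 0.03, adjusted p = 1.84e-09) in CD4+ cells. In CD8+ cells the same test gave 1.32-fold (0.40 ± 0.05, adjusted p = 6.75e-07) and 1.45-fold (0.54 ± 0.05, adjusted p = 7.41e-09). As shares of all UMIs the saline pools of CD4+ cells held 2382, 2371 and 2387 CPM, the pools at 5 mg/kg 2296, 2299 and 2319.7, all below saline (log2 −0.05, adjusted p = 0.224, edgeR), and the pools at 50 mg/kg 2429.9, 2293 and 2178, which overlapped saline. On that scale the CD8+ means were 2136, 2104 and 2146 CPM with saline, 5 and 50 mg/kg. Counted per cell, B2m went from 8.79 to 11.6 and 15.6 UMIs in CD4+ and from 10.2 to 14.6 and 17.1 in CD8+ cells, beside the rise of total UMIs per cell.

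H2-K1 and H2-D1 encode the classical heavy chains. H2-D1 in CD4+ cells held 2631, 2568 and 2688 TMM-normalised CPM with saline, 3163, 3069.9 and 3153 at 5 mg/kg and 3852, 3883 and 3619 at 50 mg/kg. In CD8+ cells the pools held 2379, 2331 and 2371, then 2923, 2851 and 2829.9, then 3532, 3651 and 3245. The 3 groups were fully separated and ordered by dose in both lineages on this scale. As a share of UMIs the pools at 5 mg/kg lay below all saline pools in both lineages, a fall of 0.11 in CD4+ (adjusted p = 0.00481, edgeR) and 0.14 in CD8+ cells (adjusted p = 0.00401). Relative to the median gene H2-D1 rose at 50 mg/kg 1.44-fold in CD4+ (log2 0.53 ± 0.03, adjusted p = 4.87e-12, edgeR) and 1.47-fold in CD8+ cells (0.56 ± 0.04, adjusted p = 4.43e-10). The step from 5 to 50 mg/kg was 0.27 in CD4+ (adjusted p = 6.08e-07, edgeR) and 0.28 in CD8+ cells (adjusted p = 2.13e-05), and the pools of the 2 doses did not overlap on either scale. The rise over saline was small as a share of UMIs, 0.09 in CD4+ cells (adjusted p = 0.0140, edgeR) and 0.03, not past the threshold, in CD8+ cells.

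H2-K1 held 3035, 3001 and 2989.6 TMM-normalised CPM with saline, 3448, 3383 and 3450.4 at 5 mg/kg and 3896, 3799 and 3382 at 50 mg/kg in CD4+ cells. In CD8+ cells it held 2163, 2245 and 2244, then 2629, 2531 and 2575, then 3049.9, 3193 and 2578. The saline pools were the lowest in both lineages, and replicate 3 at 50 mg/kg lay at the level of the pools at 5 mg/kg. H2-K1 rose by 0.30 ± 0.04 (log2, adjusted p = 7.98e-07, edgeR) in CD4+ and 0.41 ± 0.06 (adjusted p = 2.75e-06) in CD8+ cells at 50 mg/kg, and as a share of UMIs its direction flipped to −0.14 (adjusted p = 0.00213) and −0.12. At 5 mg/kg the share fell by 0.17 (adjusted p = 0.000628, edgeR) and 0.21 (adjusted p = 0.00386).

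H2-T23 and H2-Q7 encode nonclassical heavy chains, H2-T23 being the Qa-1 chain that NK cell receptors read. H2-T23 in CD4+ cells held 443, 441 and 454 TMM-normalised CPM with saline, 573, 539 and 563 at 5 mg/kg and 648, 611 and 575 at 50 mg/kg, and in CD8+ cells 342, 349 and 372, then 457, 465 and 440.3, then 529, 521 and 458. All CSA pools lay above all saline pools. It rose 1.37-fold in CD4+ (log2 0.45 ± 0.04, adjusted p = 3.98e-09, edgeR) and 1.42-fold in CD8+ cells (0.50 ± 0.05, adjusted p = 6.74e-08) at 50 mg/kg, and as a share of UMIs it was at 0.02 and −0.03, not past the threshold.

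H2-Q7 differed from the other heavy chains. Its CD8+ pools held 835, 852 and 854 TMM-normalised CPM with saline, 854, 818 and 848 at 5 mg/kg and 997, 991 and 746 at 50 mg/kg, and its CD4+ pools 751, 778 and 785, then 799, 755 and 778, then 910.2, 868 and 724. The pools at 50 mg/kg therefore lay on both sides of the saline pools. Its change at 50 mg/kg was 0.11 in CD4+ (adjusted p = 0.0788, edgeR) and 0.10 in CD8+ cells (adjusted p = 0.212), and without replicate 3 at 50 mg/kg it was 0.21 (adjusted p = 5.29e-05) and 0.23 (adjusted p = 1.41e-06). H2-Q7 also shares the most sequence with other genes: 13.8% of the 90-base stretches of its transcripts occur in those of H2-Q10, H2-Q5, H2-Q6 and others, against 4.25% for H2-D1, 4.01% for H2-T23, 1.54% for H2-K1 and 0 for B2m, Tap1, Tap2 and Nlrc5. How reads were split among the heavy chains is therefore uncertain. Replicate 3 at 50 mg/kg, the pool with the most UMIs per cell (medians of 6300.0 in CD4+ and 8065 in CD8+ cells), was the lowest of its group for 9 of 9 genes in CD4+ and 8 of 9 in CD8+ cells. How often it was the lowest among all genes was not counted.

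**Figure D1:**
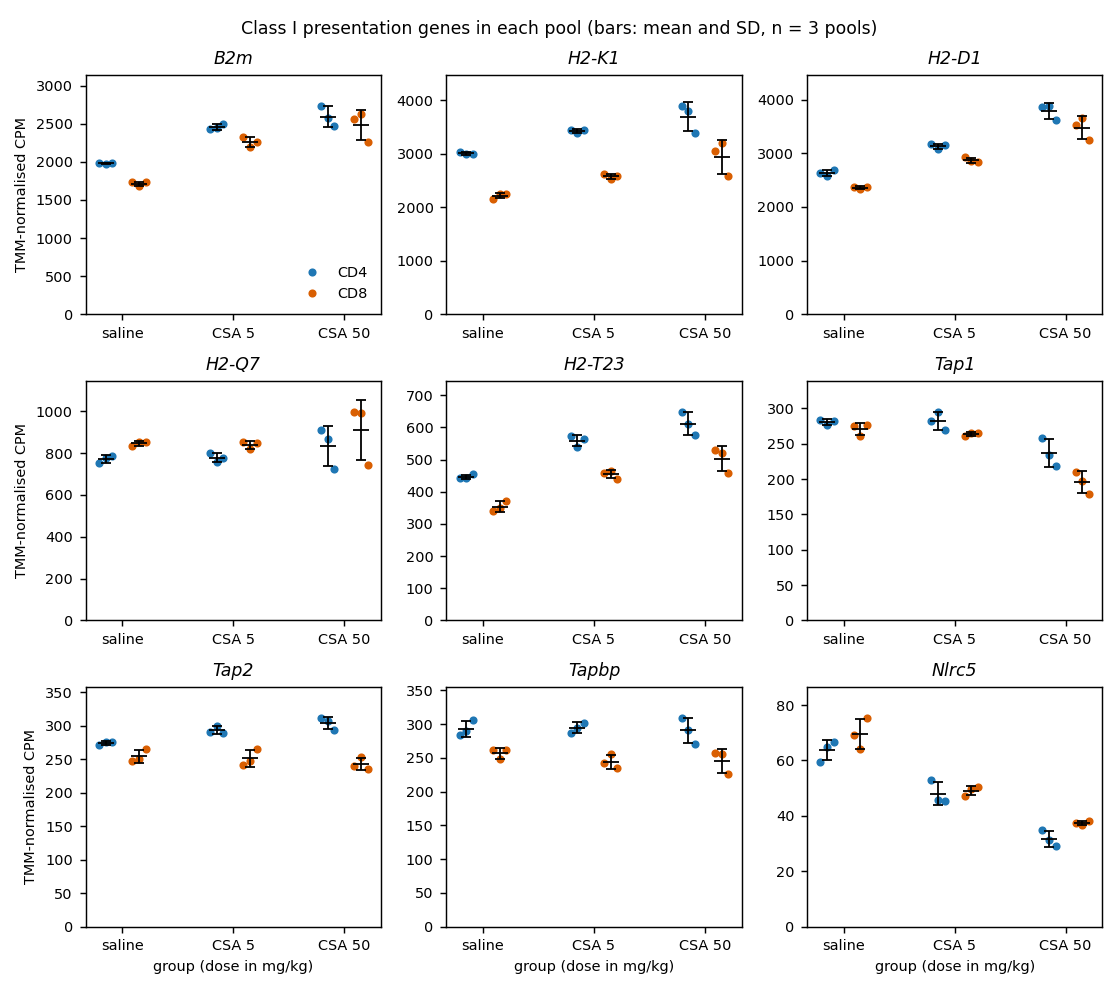
TMM-normalised CPM of each of the 9 genes (vertical axes, from 0) in every pool by group (horizontal axes, dose in mg/kg), with CD4+ and CD8+ pools in separate colours, normalised separately, and bars for the mean and SD of 3 pools. B2m, H2-K1, H2-D1 and H2-T23 lie higher in all CSA pools than in all saline pools on this scale, which is relative to the median gene, while Nlrc5 falls from a mean of 63.7 to 31.7 CPM in CD4+ cells.

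Tap1 and Tap2 encode the subunits of the peptide transporter, and they moved apart. Tap1 in CD8+ cells held 275, 260.4 and 277 TMM-normalised CPM with saline, 261, 265 and 265 at 5 mg/kg and 210.3, 198 and 179 at 50 mg/kg. In CD4+ cells the pools held 284, 277 and 282, then 282, 295 and 269, then 258, 235 and 218. The pools at 50 mg/kg lay below all others in both lineages, and those at 5 mg/kg overlapped saline on this scale. Tap1 fell by 0.25 (log2, SE 0.05, adjusted p = 0.000265, edgeR) in CD4+ and by 0.47 (SE 0.05, adjusted p = 1.48e-07) in CD8+ cells at 50 mg/kg. As a share of UMIs it went from a mean of 338 to 265 and 210 CPM in CD4+ and from 338 to 245 and 169 in CD8+ cells, a log2 change at 50 mg/kg of −0.68 (adjusted p = 3.25e-10, edgeR) and −1.001 (adjusted p = 7.82e-12), and at 5 mg/kg of −0.35 and −0.46.

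Tap2 held 271, 276 and 276 TMM-normalised CPM with saline and 311, 306 and 294 at 50 mg/kg in CD4+ cells, a rise of 0.15 (adjusted p = 0.00222, edgeR) that turned to −0.29 as a share of UMIs. In CD8+ cells it held 247, 251 and 264 with saline and 240.4, 253 and 235 at 50 mg/kg, which overlapped (log2 −0.07, adjusted p = 0.194, edgeR). Tapbp, which encodes tapasin, held 284, 289 and 307 with saline and 309, 292 and 271 at 50 mg/kg in CD4+ cells and overlapped in CD8+ cells too, with changes of −0.02 (adjusted p = 0.775, edgeR) and −0.06 (adjusted p = 0.273). On the share-of-UMIs scale Tapbp was at −0.45 and −0.59, close to the median gene at −0.45 and −0.53.

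Nlrc5, the class I transactivator, had the largest change of the 9 genes at 50 mg/kg in both lineages. In CD4+ cells its pools held 59.6, 64.8 and 66.6 TMM-normalised CPM with saline, 52.8, 45.8 and 45.2 at 5 mg/kg and 34.9, 31.2 and 28.9 at 50 mg/kg. In CD8+ cells they held 69.1, 64.3 and 75.3, then 47.3, 49.7 and 50.3, then 37.4, 36.7 and 37.9. The 3 groups were separated and ordered by dose in both lineages, on 187 to 724 Nlrc5 UMIs in a pool. By edgeR Nlrc5 fell to 0.746 of saline at 5 mg/kg (log2 −0.42 ± 0.08, adjusted p = 0.000173) and 0.494 at 50 mg/kg (−1.02 ± 0.08, adjusted p = 5.22e-10) in CD4+ cells. In CD8+ cells it fell to 0.709 (−0.50 ± 0.07, adjusted p = 4.53e-06, edgeR) and 0.538 (−0.89 ± 0.07, adjusted p = 8.04e-10). The step from 5 to 50 mg/kg was −0.59 (adjusted p = 1.83e-05, edgeR) in CD4+ and −0.40 (adjusted p = 0.00029) in CD8+ cells. As a share of UMIs Nlrc5 went from 76.5 to 45.0 and 28.1 CPM in CD4+ and from 86.7 to 45.6 and 32.3 in CD8+ cells, and per cell from 0.283 to 0.225 and 0.191 UMIs and from 0.416 to 0.318 and 0.259. With the shares of the T cell clusters held fixed, the change in CD4+ cells at 50 mg/kg was −0.58 (adjusted p = 0.00131, limma). In CD4+ cells of 4000 to 8000 UMIs the steps from 5 to 50 mg/kg of Nlrc5 and Tap1 were −0.25 (adjusted p = 0.184, edgeR) and −0.15 (adjusted p = 0.154).

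Counted over the list, 4 of 9 genes rose and 1 fell at 5 mg/kg in CD4+ cells, where 26.1% of 10568 genes rose and 25.6% fell. In CD8+ cells the count at 5 mg/kg was also 4 and 1, beside 29.9% and 30.3% of 10841 genes. At 50 mg/kg 5 rose and 2 fell in CD4+ cells (34.7% and 35.8% of all genes), and 4 rose and 2 fell in CD8+ cells (37.1% and 36.9%). Between the doses 3 were higher and 2 lower at 50 mg/kg in CD4+ (19.8% and 21.3%) and 4 were higher and 2 lower in CD8+ cells (20.0% and 21.0%). The median change of the 9 at 50 mg/kg was 0.15 in CD4+ and 0.10 in CD8+ cells. Between the doses H2-D1 (higher), Tap1 and Nlrc5 (both lower) had pools that did not overlap on either scale in both lineages. The share of all genes with such pools was not counted. The calls of H2-K1 and H2-T23 at 0.11 and 0.13 in CD4+ cells, and of B2m, H2-K1 and H2-T23 at 0.13, 0.19 and 0.15 in CD8+ cells, ended when single pools were left out, that of H2-K1 in CD8+ cells without CSA 50 replicate 2 (0.13, adjusted p = 0.0684, edgeR).

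**Figure D2:**
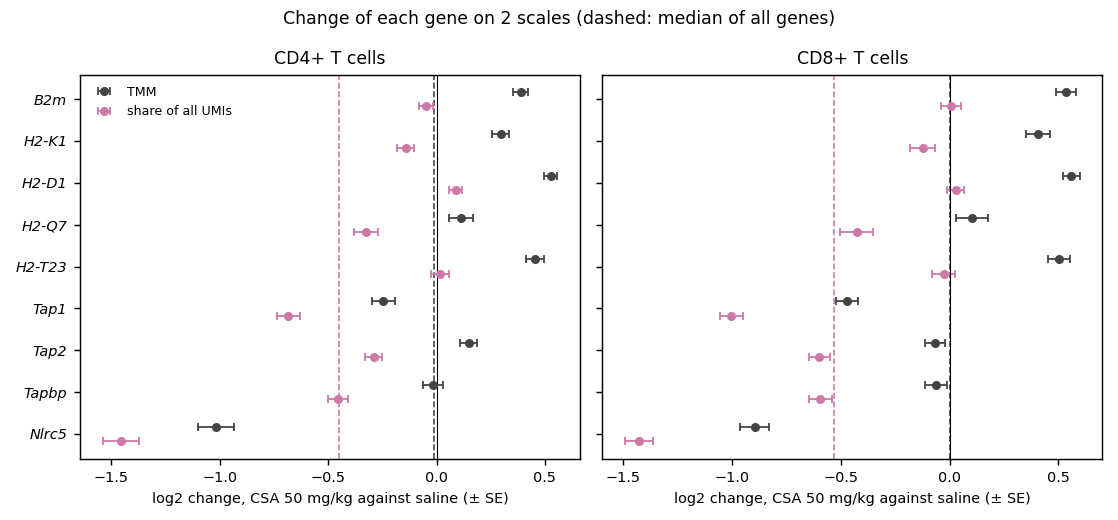
Log2 change of each gene between CSA at 50 mg/kg and saline (horizontal axis, bars are SE) in CD4+ and CD8+ T cells, fitted after TMM normalisation and as a share of all UMIs, with dashed lines at the median of all genes on each scale. H2-K1 changes sign between the scales, from 0.30 to −0.14 in CD4+ cells, while Nlrc5 is below 0 on both, at −1.02 and −1.46.

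Ratios of UMIs within a pool need no scaling between pools. Nlrc5 per 1000 B2m UMIs in CD4+ cells was 30.0, 32.9 and 33.6 with saline, 21.8, 18.7 and 18.1 at 5 mg/kg and 12.8, 12.1 and 11.7 at 50 mg/kg. In CD8+ cells it was 39.9, 38.2 and 43.6, then 20.3, 22.6 and 22.2, then 14.6, 14.0 and 16.8. The 3 groups were separate in both lineages, with the pools at 50 mg/kg the lowest. Tap1 per 1000 B2m UMIs had means of 142 ± 1.23, 115 ± 6.63 and 91.3 ± 2.97 (SD, n = 3 pools) in CD4+ and 158 ± 2.88, 116 ± 4.42 and 78.9 ± 3.52 in CD8+ cells. Against its divergent neighbour, Tap1 per 100 Psmb9 UMIs was 94.1, 85.3 and 90.8 with saline, 67.1, 69.0 and 64.1 at 5 mg/kg and 52.9, 52.9 and 55.8 at 50 mg/kg in CD4+ cells, with CD8+ means of 86.8, 54.8 and 46.1. The 3 groups were separate, so the genes of this shared start region changed unequally.

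Among the chains, H2-D1 per 100 H2-K1 UMIs went from 87.4 to 91.3 and 103 in CD4+ and from 106 to 111 and 119 in CD8+ cells. H2-Q7 per 100 H2-K1 UMIs went the other way, from 25.6 to 22.7 and 22.5 in CD4+ and from 38.2 to 32.6 and 30.9 in CD8+ cells. Relative to H2-K1, H2-D1 and H2-Q7 thus moved in opposite directions.

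**Figure D3:**
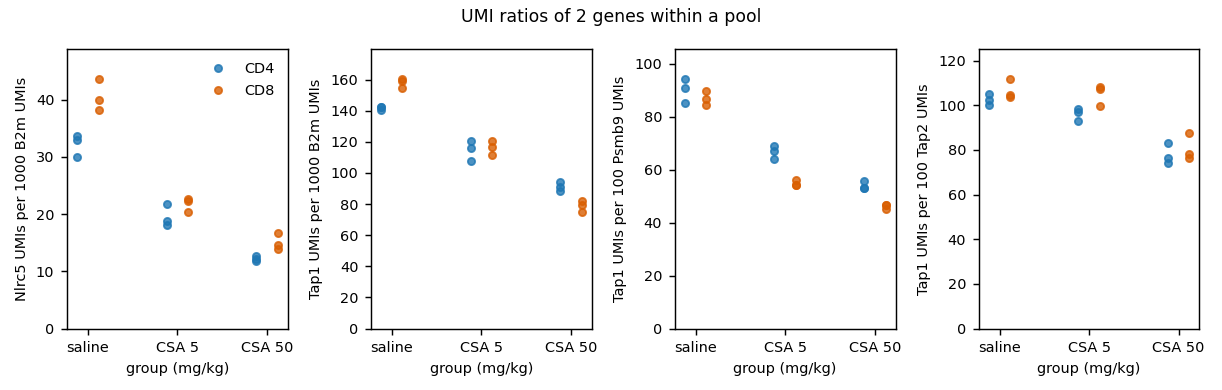
Ratios of the UMIs of 2 genes within each pool (vertical axes, from 0) by group (horizontal axes, dose in mg/kg), with 1 point per pool and a colour per lineage. Nlrc5 per 1000 B2m falls with dose in both lineages, from a mean of 32.2 to 12.2 in CD4+ and from 40.6 to 15.1 in CD8+ cells.

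The lineages differed before any drug. With saline, H2-K1 was at 2945 ± 26.2 CPM in CD4+ and 2298 ± 46.7 in CD8+ cells (SD, n = 3 pools, joint fit), a log2 difference of −0.36 (adjusted p = 1.16e-10, edgeR). H2-T23 (−0.25, adjusted p = 2.2e-06, edgeR), B2m (−0.13, adjusted p = 0.00116), Tapbp (−0.11, adjusted p = 0.0215) and H2-D1 (−0.07, adjusted p = 0.0236) were lower in CD8+ cells in 3 of 3 pools. H2-Q7 (0.22, adjusted p = 2.09e-06, edgeR) and Nlrc5 (0.20, adjusted p = 0.012) were higher in CD8+ cells in 3 of 3 pools. The H2-D1 call ended without any 1 of the saline pools (adjusted p = 0.0613 to 0.142, edgeR), that of Tapbp without saline replicate 2 or 3 (adjusted p = 0.145 and 0.153) and that of Nlrc5 without saline replicate 1 or 3 (adjusted p = 0.0980 and 0.113). Of the 9 genes 2 were thus higher and 5 lower in CD8+ cells, where 21.4% and 18.8% of 11177 genes were. Without the cycling clusters B2m was higher in CD8+ cells by 0.10 (adjusted p = 0.0117, edgeR), H2-D1 and H2-T23 were at 0.07 and 0.01, H2-K1 was at −0.18 (adjusted p = 1.64e-05) and Nlrc5 higher by 0.43 (adjusted p = 7.01e-05). The order of the lineages was thus turned for B2m when cycling clusters were left out, and was kept for H2-K1, H2-Q7 and Nlrc5. The sign also changed for H2-D1 and H2-T23, with next to no difference left for H2-T23.

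The response to 50 mg/kg differed between the lineages for 3 genes, tested as a difference of changes within pools. Tap1 fell more in CD8+ than in CD4+ cells (difference −0.25 ± 0.05, adjusted p = 0.00107, edgeR), and Tap2 was also lower in CD8+ cells relative to CD4+ cells (−0.24 ± 0.05, adjusted p = 0.00191). B2m rose more in CD8+ cells (0.12 ± 0.04, adjusted p = 0.0464, edgeR), which was not past the threshold as a share of UMIs (0.05) and was at −0.06 without the cycling clusters. The count was 1 of 9 higher and 2 of 9 lower, beside 9.08% and 10.3% of all genes. DESeq2 gave −0.23 (adjusted p = 0.0613) for Tap1 and −0.22 (adjusted p = 0.0800) for Tap2. At 5 mg/kg edgeR called 0 of 9 genes, beside 2.05% and 1.52% of all genes, with 1 gene (Tap2) at an unadjusted p under 0.05, and DESeq2 called 0.

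TEa cells, the transgenic CD4+ cells, were compared with the other CD4+ cells in the 7 pools that held at least 10 of them, 11 to 50 TEa cells in each. All 5 chains were lower in TEa cells by edgeR, in a fit where the median of all genes was at −0.06 (−0.001 with DESeq2). H2-K1 ranged from 1974 to 3267 CPM in TEa (median 2731) and from 3220.4 to 4061 (median 3525) in other cells, a log2 difference of −0.37 (adjusted p = 8.06e-07, edgeR), and was lower in 7 of 7 pools. H2-Q7 had medians of 623 and 832 CPM (−0.40, adjusted p = 2.41e-05, edgeR), B2m 1935 and 2528 (−0.29, adjusted p = 0.000532) and H2-D1 2733 and 3199 (−0.22, adjusted p = 0.0196), each lower in 7 of 7 pools. H2-T23 had medians of 404 and 562 CPM (−0.31, adjusted p = 0.011, edgeR) and was lower in 6 of 7. With 1 pool left out, the H2-D1 call ended in 4 of 7 fits (adjusted p = 0.0616 to 0.175, edgeR). That of H2-T23 ended in 2 of 7 (adjusted p = 0.109 and 0.119, edgeR). Tapbp (−0.30, adjusted p = 0.0686), Tap1 (−0.20, adjusted p = 0.386) and Nlrc5 (−0.33, adjusted p = 0.560, on 64 TEa UMIs) did not pass the threshold by edgeR. Of the 9 genes 5 were lower and 0 higher, where 1.9% and 0.825% of 10059 genes were, and DESeq2 called only H2-Q7 (−0.32, adjusted p = 0.00253).

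Across the T cell clusters of the saline mice, the genes varied less than 5-fold. A cluster of CD4+ cells high in Isg15, a type I interferon response gene, had the highest mean for 7 of the 9 genes on the share-of-UMIs scale, with 69 cells in the 3 pools. H2-K1 there was 5287 ± 540.2 CPM (SD, n = 3 pools) against 2176 ± 45.9 in cycling Cd226lo CD8+ effector cells, the lowest, a ratio of 2.43. H2-T23 ran from 1034 ± 156 to 348 ± 16.1 (ratio 2.97), Tap1 from 603 ± 88.8 to 192 ± 26.3 (3.14) and Tapbp from 845 ± 104 to 196 ± 9.73 (4.31), with naive or Cd226lo CD8+ cells lowest for the last 2. The Isg15-high cluster stood apart from the next cluster, with no overlap of pools, for H2-K1, H2-D1, H2-T23, Tap1 and Tapbp. The share of all genes for which it did so was not counted. The cluster did not stand apart for B2m, where it was at 2812 ± 90.2 beside 2746 ± 129 in naive CD4+ cells, nor for Tap2.

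Nlrc5 and H2-Q7 did not follow that order. Nlrc5 was highest in Cd226hi CD8+ effector cells (126 ± 9.79 CPM) and lowest in cycling Cd226lo CD4+ effector cells (37.8 ± 8.39), and H2-Q7 was highest in a cycling CD8+ effector cluster (1259 ± 87.6) and lowest in Tcf7hi CD4+ precursor-like cells (666 ± 50.4). Neighbouring clusters in the order mostly overlapped: of 19 neighbour pairs, 6 were apart for H2-K1, 3 for H2-D1, 2 each for H2-T23, Tap1 and Tapbp, 1 each for B2m and H2-Q7, and 0 for Tap2 and Nlrc5.

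Over 20 saline cluster means, which share captures and depth and are given as a description, Tap1 followed Tap2 (Pearson r = 0.90) and Tapbp (0.89), and H2-K1 followed H2-T23 (0.85), whereas B2m and H2-Q7 had r = −0.20. B2m followed the mean profile of the 9 genes least (0.31), with the others between 0.68 and 0.86. Among 3691 genes of at least 50 CPM the 5 most like the mean profile were Trim14 (0.95), Zc3hav1 (0.93), Parp14 (0.92), Vcpip1 (0.92) and Nub1 (0.91), and all 5 were highest in the Isg15-high cluster.

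**Figure D4:**
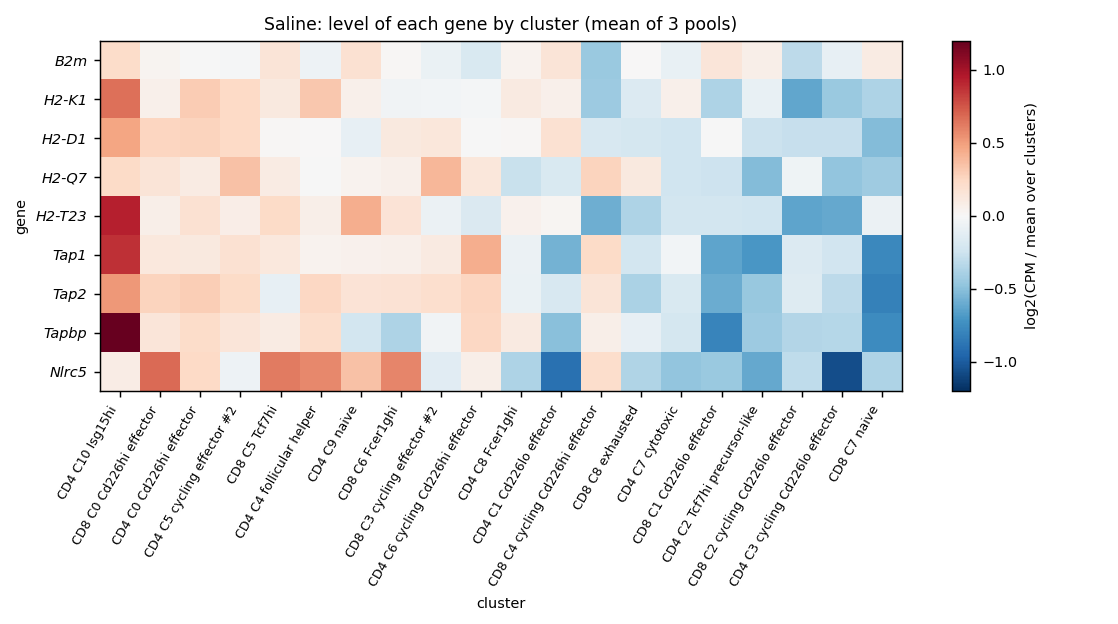
Level of each gene (rows) in each T cell cluster (columns) of the saline pools, as log2 of its CPM over the gene's mean across clusters, with colour for the mean of 3 pools. The Isg15-high CD4+ cluster C10 is the highest column for most genes, and the B2m row varies least, with a highest-to-lowest ratio of 1.59.

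Within clusters, 50 mg/kg was compared with saline where at least 10 cells were present in each pool, in 10 CD4+ and 8 CD8+ clusters. H2-D1 was above 0 in all 18 and was called higher in 8 CD4+ and 7 CD8+ clusters, with log2 changes of 0.09 to 0.50 and 0.15 to 0.67 relative to the median gene. B2m was called higher in 6 and 5 clusters, H2-T23 in 5 and 4 and H2-K1 in 3 and 5, with none called lower. As a share of UMIs B2m was called higher in 1 and 1, and H2-K1 in 1 and 2. H2-D1 was also called higher in fewer clusters of both lineages on that scale than relative to the median gene. With a pool left out, B2m in CD4+ cells came to 3 clusters (without CSA 50 replicate 1 or saline replicate 3), H2-T23 in CD4+ cells to 3 (without saline replicate 1), H2-K1 in CD4+ cells to 6 (without CSA 50 replicate 3) and H2-K1 in CD8+ cells to 3 (without CSA 50 replicate 1) or 2 (without saline replicate 1). Nlrc5 was below 0 in all 16 clusters in which it was tested, from −1.60 to −0.37 in CD4+ and −1.25 to −0.29 in CD8+ clusters, and was called lower in 3 of 8 and 6 of 8. Tap1 was called lower in 3 CD4+ and 7 CD8+ clusters, and Tap2 in 0 and 3. The count of Tap1 in CD8+ clusters was 4 with DESeq2 and also without CSA 50 replicate 3 or saline replicate 1. H2-Q7 went both ways, with 2 CD4+ and 1 CD8+ clusters called higher and 3 and 2 lower. Tapbp was called lower in 1 CD4+ cluster.

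The Cd226hi CD8+ effector cluster, with 940 cells in saline and 560 at 50 mg/kg, gave 5 calls higher and 2 lower, beside 58.4% of all its genes called in either direction. B2m (log2 0.78, adjusted p = 5.08e-23, edgeR), H2-T23 (0.72, adjusted p = 2.03e-15), H2-K1 (0.68, adjusted p = 7.49e-20), H2-D1 (0.67, adjusted p = 3.65e-21) and H2-Q7 (0.52, adjusted p = 2.58e-10) rose relative to the median gene, and H2-Q7 was at −0.03 as a share of UMIs. Nlrc5 fell by 0.66 (adjusted p = 6.97e-05, edgeR) and went from 126 ± 9.79 to 54.7 ± 5.62 CPM as a share of UMIs. Tap1 fell by 0.24 (adjusted p = 0.0160, edgeR), a call lost with DESeq2 (−0.21, adjusted p = 0.121), and went from 360 ± 24.6 to 208 ± 9.22 CPM as a share of UMIs. B2m went from 2470.1 ± 98.6 to 2876 ± 171 CPM on that scale.

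In the other CD8+ clusters, calls higher and lower numbered 1 and 3 in Cd226lo effector cells (26.9% of genes called in either direction), 4 and 3 in cycling Cd226lo effector cells (54.7%), 4 and 3 in the other cycling effector cells (58.9%), 2 and 3 in Tcf7hi cells (34.7%), 1 and 3 in Fcer1ghi cells (38.0%), 2 and 0 in naive cells (3.57%) and 3 and 1 in exhausted cells (39.6%). These calls are relative to the median gene, and few genes were called in naive CD8+ cells (115 cells in saline, 161 at 50 mg/kg). In CD4+ clusters they numbered 4 and 1 in Cd226hi effector cells (54.8%), 2 and 2 in Cd226lo effector cells (20.3%), 4 and 0 in Tcf7hi precursor-like cells (22.5%), 2 and 0 in cycling Cd226lo effector cells (17.7%), 1 and 0 in follicular helper cells (18.8%), 4 and 2 in the other cycling effector cells (54.0%), 4 and 1 in cytotoxic cells (36.6%), 2 and 1 in Fcer1ghi cells (34.1%), 0 and 1 in naive cells (26.8%) and 1 and 2 in the Isg15-high cells (36.1%). The clusters differ in cell number, so these counts are not ranked.

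**Figure D5:**
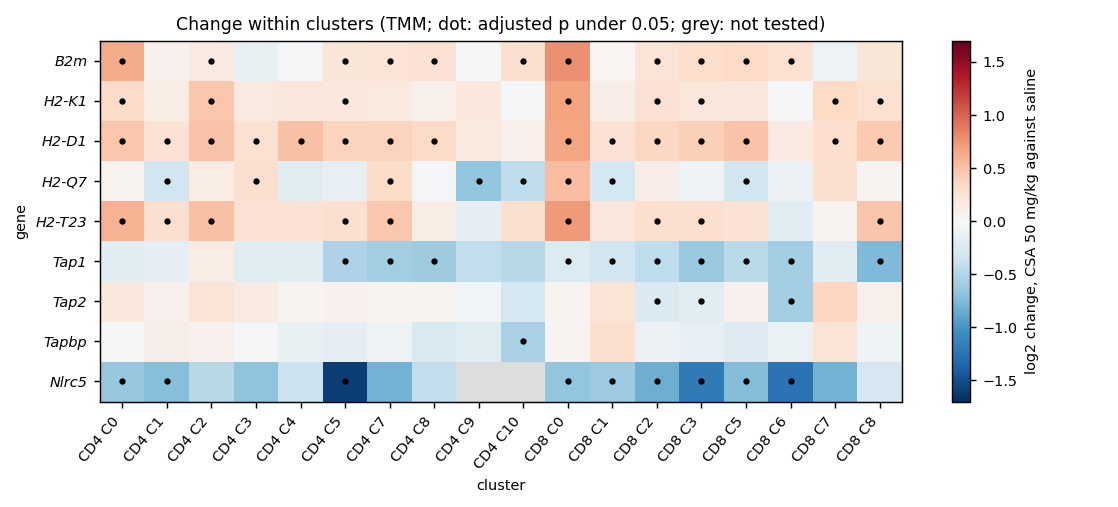
Log2 change of each gene (rows) between CSA at 50 mg/kg and saline within each T cell cluster (columns), relative to the median gene, with a dot where the adjusted p was under 0.05 and grey where a gene was not tested. The Nlrc5 row is below 0 in all 16 tested clusters and the H2-D1 row above 0 in all 18 on this scale, while several chains change sign as a share of all UMIs.

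At 50 mg/kg 5 of 7 peptide supply genes rose and 1 fell in each lineage relative to the median gene (3 and 2 as a share of UMIs), where 34.7% of all genes rose and 35.8% fell in CD4+ and 37.1% and 36.9% in CD8+ cells. These shares of all genes are the background of every list count that follows. The immunoproteasome subunits Psmb8 (0.72, adjusted p = 2.56e-13, edgeR) and Psmb10 (0.66, adjusted p = 1.38e-10) rose in CD4+ cells, and Psmb10 (0.83, adjusted p = 2.56e-10) and the proteasome activator Psme1 (0.80, adjusted p = 1.88e-11) in CD8+ cells, also as shares of UMIs. Erap1, which trims peptides in the endoplasmic reticulum, fell by 0.69 in CD4+ (adjusted p = 1.83e-08, edgeR) and by 0.80 in CD8+ cells (adjusted p = 3.74e-10). The constitutive subunits Psmb5 (0.71 and 0.76, adjusted p = 3.45e-12 and 2.79e-12, edgeR), Psmb6 and Psmb7, 3 of 3, rose in both lineages too, 2 of 3 as a share of UMIs, beside 34.7% and 37.1% of all genes.

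Of 4 peptide loading partners 1 rose and 3 fell in each lineage (0 and 4 as a share of UMIs), beside 35.8% and 36.9% of all genes that fell. The lectin chaperone Canx fell by 0.91 in CD4+ (adjusted p = 5.97e-12, edgeR) and by 1.19 in CD8+ cells (adjusted p = 3.12e-12), whereas the tapasin-like Tapbpl rose by 0.22 (adjusted p = 0.00469) and 0.24 (adjusted p = 0.00155) relative to the median gene and fell by 0.22 and 0.29 as a share of UMIs. Of the other class I heavy chains, 11 of 20 were in the table and 9 were tested, of which 5 rose and 2 fell in CD4+ and 5 and 1 in CD8+ cells (1 and 5, and 1 and 6, as a share of UMIs), beside 34.7% and 37.1% of all genes that rose. H2-Q10, the paralog with most sequence in common with H2-Q7, rose by 1.77 in CD4+ (adjusted p = 2.67e-12, edgeR) and 1.13 in CD8+ cells (adjusted p = 3.34e-08), and H2-T24 fell by 0.65 (adjusted p = 5.13e-05) and 0.71 (adjusted p = 4.57e-05).

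Of 13 regulators of class I genes, 4 rose and 5 fell in CD4+ and 5 rose and 7 fell in CD8+ cells (1 and 9, and 0 and 10, as a share of UMIs). The CD4+ counts are near the background of 34.7% rising and 35.8% falling, and in CD8+ cells it was 37.1% and 36.9%. Creb1, the CRE-binding factor, fell by 0.94 in CD4+ (adjusted p = 1.72e-11, edgeR) and by 1.01 in CD8+ cells (adjusted p = 4.52e-12), and Nfya, a subunit of NF-Y, by 0.81 (adjusted p = 1.65e-06) and 0.94 (adjusted p = 1.43e-06). Rfx5, a subunit of the RFX complex, fell by 1.04 (adjusted p = 2.98e-05, edgeR) and 1.34 (adjusted p = 1.39e-05), on low levels of 11.1 and 9.28 CPM with saline. Irf1, an interferon-induced activator, fell by 0.53 (adjusted p = 4.09e-08, edgeR) and 0.47 (adjusted p = 2.1e-06). Irf8, another interferon regulatory factor, rose by 0.69 in CD4+ (adjusted p = 1.16e-05, edgeR) and fell by 0.53 in CD8+ cells (adjusted p = 7.65e-06). Rfxap, another RFX subunit, rose by 0.66 in CD8+ cells (adjusted p = 5.6e-08, edgeR).

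Of 12 genes of the interferon-gamma axis tested in CD4+ cells 0 rose and 10 fell, and of 11 in CD8+ cells 1 rose and 8 fell (0 and 11 in both as a share of UMIs), beside 35.8% and 36.9% of all genes that fell. The kinase Jak2 fell by 1.75 in CD4+ (adjusted p = 2.46e-15, edgeR) and by 1.19 in CD8+ cells (adjusted p = 3.64e-12), and the receptor chain Ifngr1 by 0.94 in CD4+ cells (adjusted p = 1.93e-10). Ifng itself fell by 0.74 (adjusted p = 0.000865, edgeR) and 1.06 (adjusted p = 1.58e-05) at 50 mg/kg and was at −0.26 (adjusted p = 0.230) and 0.05 (adjusted p = 0.806) at 5 mg/kg.

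Of 11 type I interferon response genes 4 rose and 3 fell in CD4+ and 6 rose and 0 fell in CD8+ cells (1 and 6, and 0 and 3, as a share of UMIs), where 34.7% rose and 35.8% fell, and 37.1% and 36.9%, of all genes. Ifi27l2a rose by 1.07 (adjusted p = 2.59e-12, edgeR) in CD4+ and 0.70 (adjusted p = 0.000375) in CD8+ cells, and the antiviral gene Rsad2 fell by 1.05 (adjusted p = 0.000698) in CD4+ cells. Of 8 tested class II presentation genes 1 rose and 7 fell in CD4+ and 2 rose and 4 fell in CD8+ cells (0 and 7, and 0 and 5, as a share of UMIs), beside 35.8% and 36.9% of all genes that fell. H2-Aa, the class II alpha chain, fell by 1.79 (adjusted p = 1.25e-05, edgeR) and 2.33 (adjusted p = 7.69e-06), on low mean levels of 10.9 and 11.3 CPM over all pools.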

How the data were processed

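Gene expression was measured by 10x 5′ single-cell RNA sequencing in 3 captures, saline, CSA 5 mg/kg and CSA 50 mg/kg. The authors deposited 1 table of UMI counts per gene and cell for all cells. Each cell's hashtag pool and cluster number came in 1 table for CD4+ and 1 for CD8+ cells. The submitters' processing notes name Cell Ranger, Seurat 3.0.0 and build mm10. Clusters were used as deposited and named after the study. The names of CD8+ clusters were matched by their cell numbers. Doublets were not called here, and the deposited cells were taken as filtered. Columns of per-sample values not used numbered 0.

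UMI counts were summed per pool and lineage (n = 3 pools of 2 mice in each group), and the 280 TEa cells were kept apart. Pools held 3994968 to 11454636 UMIs. Each lineage was fitted in R 4.3.3 with edgeR 4.0.16 (TMM, filterByExpr, quasi-likelihood test) over all genes and groups, with Benjamini-Hochberg adjustment over all tested genes and a threshold of 0.05. CD8+ and CD4+ sums, and TEa and other cells, were compared with the pool as a block. Within clusters a pool needed at least 10 cells. Genes were called higher or lower only past the threshold. P-values measure the spread between pools of 1 capture, not between captures. The fits were tested on simulated data. DESeq2 1.42.0 and limma 3.58.1 (on log2 of CPM plus 1) served alternatives: other scalings, no filter, pools left out, cells limited by UMIs (at least 2000, or 4000 to 8000), cycling clusters left out, TEa cells included, cluster shares fixed, only the groups compared, a replicate block and, chosen after seeing the data, removal of cells whose second hashtag reached 0.5 of the strongest.

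The 9 genes were always named. From each related list up to 3 genes per lineage were named, those past the threshold at 50 mg/kg with the largest change and a mean of at least 10 CPM, besides Irf1, Rfx5 and Ifng, and values of some other genes are not reported here. The 9 genes and the lists were chosen with earlier results of these data known. Pairing by hashtag number was checked: deviations of same-numbered pools correlated at −0.07 to 0.02 in CD4+ and −0.12 to 0.09 in CD8+ cells, so that pools shared only a number. Positions came from GENCODE vM21 and promoters from RefSeq (GRCm38.p6). Printed promoter sequences hold no exonic bases, whereas the windows searched for motifs can.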

Additional observations from a re-analysis of the deposited data

Results flagged for a closer look

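The change between saline and CSA at 50 mg/kg differed between CD8+ and CD4+ cells of the same pools for 3 of the 9 genes, by a test of the difference itself in edgeR with Benjamini-Hochberg adjustment over all genes. For Tap1 the difference was −0.25 on the log2 scale, with levels in the same joint fit of 275 ± 3.96 CPM with saline and 232 ± 19.9 at 50 mg/kg in CD4+ cells and of 281 ± 9.64 and 199 ± 15.6 in CD8+ cells (SD, n = 3 pools). It was −0.32 as a share of all UMIs and −0.27 without the cycling clusters (adjusted p = 0.0113, edgeR). For Tap2 the difference was −0.24, or −0.31 as a share of all UMIs, and −0.14 without the cycling clusters (adjusted p = 0.213, edgeR). For B2m it was 0.12, or 0.05 as a share of all UMIs, and −0.06 without the cycling clusters. With DESeq2 the calls of Tap1 (−0.23, adjusted p = 0.0613) and Tap2 (−0.22, adjusted p = 0.0800) ended, and that of B2m was at 0.14 (adjusted p = 0.0498). The B2m call also ended in 6 of 9 fits with 1 pool left out. The median of all genes moved by −0.08 in this comparison between the scales.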

How the results depend on the processing

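The rises of the chains depend on the scale. The falls of Nlrc5 and Tap1 at 50 mg/kg against saline kept their direction under every alternative run, and so did that of Nlrc5 at 5 mg/kg except in CD4+ cells with fixed cluster shares, where it was close to 0 (−0.010). Where a call ended, the cause was not tested unless fewer cells or pools entered by construction. As a share of all UMIs the counts of the 9 genes higher and lower were 0 and 7 (CD4+, 5 mg/kg; reported 4 and 1), 0 and 7 (CD8+, 5 mg/kg; reported 4 and 1), 1 and 6 (CD4+, 50 mg/kg; reported 5 and 2) and 0 and 5 (CD8+, 50 mg/kg; reported 4 and 2). Over all genes these were 927 and 5717 (reported 2760 and 2709), 1180 and 6269 (3241 and 3282), 1600 and 6237 (3669 and 3784) and 1691 and 6793 (4021 and 4003). On that scale B2m was −0.046, H2-K1 −0.17, H2-D1 −0.11, H2-Q7 −0.35, H2-T23 −0.034, Tap1 −0.35, Tap2 −0.26 and Tapbp −0.35 at 5 mg/kg in CD4+ cells, and B2m was −0.022, H2-K1 −0.21, H2-D1 −0.14 and H2-T23 −0.067 in CD8+ cells. At 50 mg/kg B2m was −0.049, H2-K1 −0.14, H2-Q7 −0.33 and Tap2 −0.29 in CD4+ cells, and H2-K1 −0.12, H2-Q7 −0.43 and H2-T23 −0.026 in CD8+ cells. In Cd226hi CD8+ effector cells H2-Q7 was −0.033, Tap2 −0.50 and Tapbp −0.51. Between the doses 1 of the 9 was higher in each lineage (reported 3 in CD4+ and 4 in CD8+, with 1311 genes higher against 2167 in CD8+). The lineage comparison gave 270 genes lower at 5 mg/kg (reported 170) and 0 of the 9 higher at 50 mg/kg (reported 1). Calls within clusters, higher and lower, were 6 and 26 in CD4+ (reported 24 and 10) and 6 and 37 in CD8+ cells (reported 22 and 18).

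With library sizes that leave out ribosomal protein, mitochondrial and T cell receptor genes, 2 of the 9 rose and 5 fell in CD4+ (1528 and 4478 genes) and 1 rose and 5 fell in CD8+ cells (1838 and 5110 genes) at 5 mg/kg, with H2-K1 at −0.023, H2-Q7 −0.20, Tap1 −0.21, Tap2 −0.12 and Tapbp −0.21 in CD4+ and H2-K1 at −0.044 in CD8+ cells. At 50 mg/kg 2 rose and 5 fell in CD4+ cells (2014 genes higher), with H2-K1 at −0.040, H2-Q7 −0.22 and Tap2 −0.19, and 5 fell in CD8+ cells (2231 and 6012 genes), with H2-Q7 at −0.28. Between the doses 1 of the 9 was higher in each lineage, with 1151 genes higher and H2-K1 at −0.017 in CD4+ and 1198 and 3502 genes in CD8+ cells.

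DESeq2 called 1 of the 9 higher in CD8+ than CD4+ cells with saline (reported 2; 1091 and 1017 genes against 2387 and 2097), 40 genes lower in the lineage comparison at 5 mg/kg (reported 170), 0 of the 9 lower in that at 50 mg/kg (reported 2; 416 and 306 genes against 1015 and 1152), 1 of the 9 lower in TEa cells (reported 5; 59 genes against 191), and 6 CD4+ and 11 CD8+ calls lower within clusters (reported 10 and 18). Without the cycling clusters 1 of the 9 was higher between the doses in CD8+ cells (1374 and 1461 genes), and 1 was lower in CD8+ than CD4+ cells (reported 5; 1273 and 1048 genes), with B2m at 0.10, H2-D1 0.073 and H2-T23 0.0082. The lineage comparison then gave 49 and 27 genes at 5 mg/kg (reported 229 and 170) and 0 of the 9 higher (303 and 322 genes) at 50 mg/kg, with B2m at −0.057 and H2-T23 −0.20. Cells of 4000 to 8000 UMIs gave 0 of the 9 lower between the doses in CD4+ cells (reported 2; 1073 and 1145 genes against 2096 and 2255). Fixed cluster shares gave 0 of the 9 lower at 5 mg/kg in CD4+ cells (reported 1; 1103 and 761 genes). Removal of cells with 2 strong hashtags, chosen after seeing the data, gave 2 higher between the doses in CD8+ cells (reported 4).

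With 1 pool left out, the genes of the 9 higher between the doses ranged from 1 to 5 in both lineages. In CD4+ cells the count was 1 without CSA 5 replicate 2 or CSA 50 replicate 1 and 5 without CSA 50 replicate 3. In CD8+ cells it was 2 without CSA 5 replicate 3 or CSA 50 replicate 1 and 1 without CSA 50 replicate 2. Those higher in CD8+ than CD4+ cells ranged from 1 to 2 and those lower from 3 to 5, the lineage comparison from 100 to 266 genes higher and 64 to 211 lower at 5 mg/kg and from 0 to 1 of the 9 higher at 50 mg/kg, TEa cells from 3 to 6 of the 9 lower and 52 to 84 genes higher, and the calls lower within CD8+ clusters from 11, without CSA 50 replicate 3, to 18. The hashtag number as a replicate block changed 0 of 54 results, with Nlrc5 at −1.02 at 50 mg/kg in CD4+ cells, and 0 of 9 CD4+ and 2 of 9 CD8+ pools correlated best with their own number. Depth limits Nlrc5 within clusters and in TEa cells.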
